A study of Rattus norvegicus with 3 samples.

Results

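Slc7a11, Gclc, Gclm, Gss, Gsr, Gpx1, Gpx3 and Gpx4 are 8 genes of cystine uptake and glutathione metabolism. They were chosen by name from the 32623 genes listed in the matrices, of which 21908 had at least 1 unique molecular identifier (UMI, a tag that counts a captured RNA molecule once) in the cells kept. All 8 had UMIs at every stage. The values come from 10x Genomics Chromium droplet sequencing of the 3′ ends of mRNA in dissociated cochlear basal membrane of untreated Sprague-Dawley rats on postnatal days 1, 7 and 14 (P1, P7 and P14). Each stage is 1 library of pooled rats of either sex, so stage and library cannot be told apart, no test between stages was possible, and no p-value is given. According to the methods, the spiral ganglion, spiral ligament and stria vascularis were dissected away, red cells were lysed and dead cells were removed. The study addresses the greater epithelial ridge, a transient epithelium of the developing cochlear duct, and its relation to hair cells.

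Glutathione is a tripeptide of glutamate, cysteine and glycine and the main small thiol of the cell. Its supply begins with cystine, which Slc7a11 (xCT) brings in through the plasma membrane in exchange for glutamate and which is then reduced to cysteine. Glutamate-cysteine ligase, made of the catalytic subunit Gclc and the modifier subunit Gclm, joins glutamate and cysteine, and glutathione synthetase (Gss) adds glycine. Glutathione peroxidases oxidise glutathione to reduce peroxides (Gpx1 in the cytosol and mitochondria, Gpx3 as a secreted enzyme, Gpx4 on lipid peroxides in membranes), and glutathione reductase (Gsr) returns the oxidised form to the reduced one with NADPH. In the cochlea this system is known for its part in the response to noise and to ototoxic drugs.

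Sequence upstream of the start was available from RefSeq (build GRCr8, not the build of the count files) for 7 of the 8 genes, all but Gsr, and the motifs below were searched on both strands of the 250 bases before each start. The Gpx3 and Gclm sequences are shown here, the first because Gpx3 was the one member past 2-fold at both steps of age and the second because it alone held the antioxidant response element core. Both are on the plus strand, at chr10:39529085-39529334 for Gpx3 and chr2:213031885-213032134 for Gclm, written 5′ to 3′ with motif matches in capitals.
Gpx3: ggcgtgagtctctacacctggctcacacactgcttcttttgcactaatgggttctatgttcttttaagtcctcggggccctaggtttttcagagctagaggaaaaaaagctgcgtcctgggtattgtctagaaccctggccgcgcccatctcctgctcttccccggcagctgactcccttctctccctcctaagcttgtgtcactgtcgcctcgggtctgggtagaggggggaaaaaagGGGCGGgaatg
Gclm: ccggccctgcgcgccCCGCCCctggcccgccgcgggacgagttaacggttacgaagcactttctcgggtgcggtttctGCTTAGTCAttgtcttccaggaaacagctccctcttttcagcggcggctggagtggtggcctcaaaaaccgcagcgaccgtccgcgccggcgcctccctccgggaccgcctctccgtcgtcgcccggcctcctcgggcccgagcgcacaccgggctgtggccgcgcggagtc
In the Gpx3 sequence the capitals are a GC box (GGGCGG) that begins 11 bases before the start, and in the Gclm sequence they are a GC box on the reverse strand, 235 bases before the start, and the antioxidant response element core (TGACNNNGC) on the reverse strand, 172 bases before the start. That core is in 10.1% of all 33469 sequences of this length and the GC box in 30.5%. A GC box was also in the sequences of Gclc, Gpx1 and Gpx4, a CCAAT box (34.0% of all) in that of Gpx4 and a TATA box (TATAAA, 12.9% of all) in that of Gclc. The amino acid response element core (TTGCATCA, 0.693% of all) was in none of the 9 sequences searched, which says only that these letters are not in these windows. A match is a run of letters and not a shown binding site.

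The kept cells, those with more than 500 and fewer than 5000 genes and under 25% of UMIs on mitochondrial genes, numbered 12779 at P1, 12581 at P7 and 5281 at P14, with 98005495, 93080129 and 11641065 UMIs and medians of 6565, 6878 and 1614 UMIs per cell. The P14 library was therefore the shallowest by far. Levels are UMIs of a gene scaled to counts per 1000000 UMIs of the cells in question (CPM), and the intervals are exact 95% limits (Poisson for a level, Clopper-Pearson for a ratio or a share) that cover counting error only, not the spread between animals. The stages shared 16 to 53 kept barcodes per pair. Cells were clustered without the 8 genes and without the other pathway genes, and clusters were named from marker lists. Of 30641 kept cells, 16855 (55.0%) were connective tissue-like, 5840 (19.1%) glia-like and 573 (1.87%) cochlear epithelium-like, so the cell type given in the labels, greater epithelial ridge cell, describes few of them. Endothelial-like, mural-like (pericyte and smooth muscle), myeloid-like, neuron-like and B cell-like clusters made up most of the rest, and a cluster of 21 hair cell-like cells at P1 was too small for levels. Epithelium-like cells had UMIs of 12 of 12 epithelial markers at P1 and P7 and 11 at P14, for summed levels of 9664, 25736 and 8929 CPM. At P14 the same 79 cells also had all 6 markers of the marginal cells of the stria vascularis, which summed to 266 CPM at P1, 541 at P7 and 9083 at P14, and all 8 otic mesenchyme and fibrocyte markers, which summed to 1095, 1895 and 52904 CPM (18111 in the connective tissue-like cells of P14). In myeloid-like cells, a class named from macrophage and neutrophil markers, 8 of 8 macrophage markers had UMIs at each stage, but their sum was 17573, 10193 and 1709 CPM. Neutrophil markers in them summed to 11882, 548 and 2470 CPM, fibroblast markers to 268, 1191 and 3375, and erythroid markers to 3210, 2107 and 11122. These 2 classes therefore did not keep the same marker makeup at P14, and other classes changed as well. Osteoblast markers in connective tissue-like cells summed to 37.4, 64.7 and 6194 CPM at P1, P7 and P14, and glia markers in glia-like cells to 4717, 13787 and 61864. Erythroid markers in endothelial-like cells summed to 13047, 2845 and 1444 CPM. The part of these differences in the values below was not tested. Summed erythroid marker CPM was 771 at P1, 1563 at P7 and 3718 at P14, and whether these UMIs came from free RNA or from erythroid cells among those kept, and their part in the results, was not tested.

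Between P1 and P7 the 8 genes differed little, with Gpx3 as the exception, whereas at P14 Slc7a11 was more than 70-fold higher and Gpx1 and Gpx3 more than 2-fold higher than at P7. The change is described by size, with a call at 2-fold, among genes with a mean of at least 10 CPM over the libraries, which 7 of the members reached. Gsr, at a mean of 5.70 CPM, did not. At P7 against P1, 1 of 7 members was higher (Gpx3) where 9.55% of all genes tested were, and 0 were lower where 5.1% were. At P14 against P7, 3 of 7 were higher (Slc7a11, Gpx1 and Gpx3) where 17.7% of all genes were, and 0 were lower where 8.84% were. At P14 against P1, 3 were higher (Slc7a11, Gclc and Gpx3) where 22.9% of all genes were, and 1 was lower (Gss) where 9.37% were. The median log2 ratio of the members was 0.03, 0.76 and 0.92 in these comparisons, beside 0.14, 0.10 and 0.19 over all genes, and these overlapping comparisons share their libraries.

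**Figure D1:**
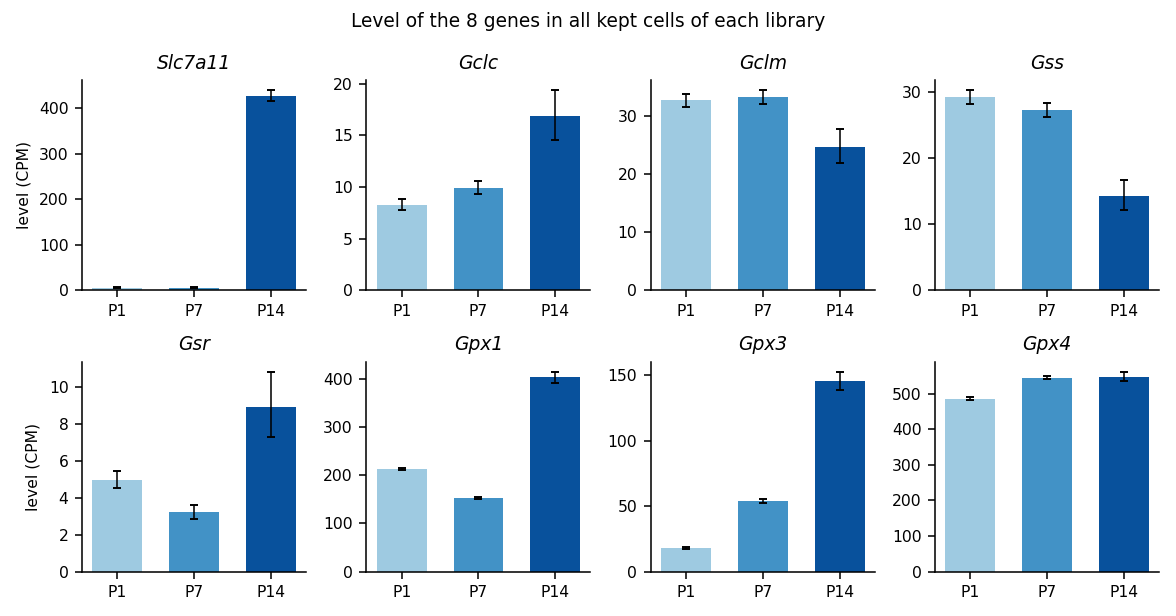
Level of each of the 8 genes (CPM, y axis from 0, own scale per gene) in all kept cells of the P1, P7 and P14 libraries, with exact 95% Poisson intervals that cover counting error only. Slc7a11 stood at 5.75, 5.89 and 427 CPM, Gpx3 was higher at each later stage, and Gclm and Gss were lowest at P14.

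Slc7a11, the cystine carrier, was at 5.75 CPM (5.29 to 6.25) at P1, 5.89 (5.40 to 6.40) at P7 and 427 (415 to 439) at P14. The P1 and P7 intervals overlapped and the P14 level lay far outside both. The P14 to P7 ratio was 72.5 (66.4 to 79.4), a log2 ratio of 6.18, or 6.08 above the median of all genes. The gene had 564 UMIs at P1, 548 at P7 and 4971 at P14, although the P14 library held the fewest UMIs in all. At least 1 UMI was found in 2.93%, 2.73% and 24.9% of cells, and after each cell was thinned to 1000 UMIs, in 0.518%, 0.492% and 21.2%. The order of the stages was thus the same at matched depth.

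At P14, 67.4% of all Slc7a11 UMIs (3349) were in 860 cells that made up 16.3% of the cells of that stage and were almost absent before (2 cells at P1 and 1 at P7). Their leading genes included Ptgds (prostaglandin D synthase) and Slc7a11 itself. Others were the carriers Slc16a11, Slc22a2, Slc6a13 and Slc22a6, the hyaluronan-binding gene Cemip and the connexin gene Gjb6. They are called Ptgds Slc16a11 cells here and have no cell type name. Of 6 leptomeningeal markers 5 had UMIs in them, among them Slc22a6, itself a leading gene of the cluster, for a summed level of 810 CPM, of which Slc22a6 alone gave 443. The sum was 265 CPM in the connective tissue-like cells of P14 and 655 (P1) and 713 (P7) in another unnamed cluster, led by Aldh1a2. The 7 fibroblast markers, all with UMIs, summed to 10270 CPM in the Ptgds Slc16a11 cells. In these cells Slc7a11 was at 2065 CPM (1996 to 2137), 12.8 times its level in the other P14 cells, and 79.8% of them held a UMI of it (71.8% after thinning).

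In the other P14 cells Slc7a11 was lower than in these. It stood at 242 CPM (219 to 267) in myeloid-like cells, 229 (214 to 244) in connective tissue-like cells and 137 (121 to 155) in endothelial-like cells. The first 2 of these did not differ beyond their intervals. Cochlear epithelium-like cells had 50.01 CPM (26.6 to 85.5, from 13 UMIs), B cell-like cells 35.3 (25.6 to 47.3), glia-like cells 22.4 (13.7 to 34.6) and mural-like cells 21.7 (2.63 to 78.3, from 2 UMIs), with intervals that overlapped between neighbours in that order. After thinning, 14.7% of connective tissue-like, 12.1% of myeloid-like and 5.66% of endothelial-like cells held a UMI, against 1.84% of glia-like and 0.699% of B cell-like cells.

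UMIs of the other leading genes of the Ptgds Slc16a11 cells were also found in these classes, so each gene was set against its own level in those cells. In Plvap endothelial-like cells Slc7a11 stood at 1.24% (0.860 to 1.72) of that level, and the carriers Slc16a11, Slc22a2, Slc6a13 and Slc22a6 stood at 0.615% to 1.49%. In B cell-like cells Slc7a11 was at 1.71% and those 4 genes at 1.27% to 1.99%. There the 5 genes thus kept nearly the ratio they had in the Ptgds Slc16a11 cells. In the Coch connective tissue-like cells Slc7a11 was at 12.9% (11.9 to 13.9) and the 4 carriers at 5.23% to 8.35%, so Slc7a11 was above that ratio. In the Clec3b connective tissue-like cells Slc7a11 was at 4.59% (3.65 to 5.71), within the 1.92% to 7.46% of the 4 carriers. In Lyz2 myeloid-like cells it was at 11.8% (10.6 to 13.1) and the 4 at 7.93% to 8.85%. In the small Slco1a4 endothelial-like cluster it was at 21.1% (18.3 to 24.2) and the 4 at 13.7% to 16.1%.

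**Figure D2:**
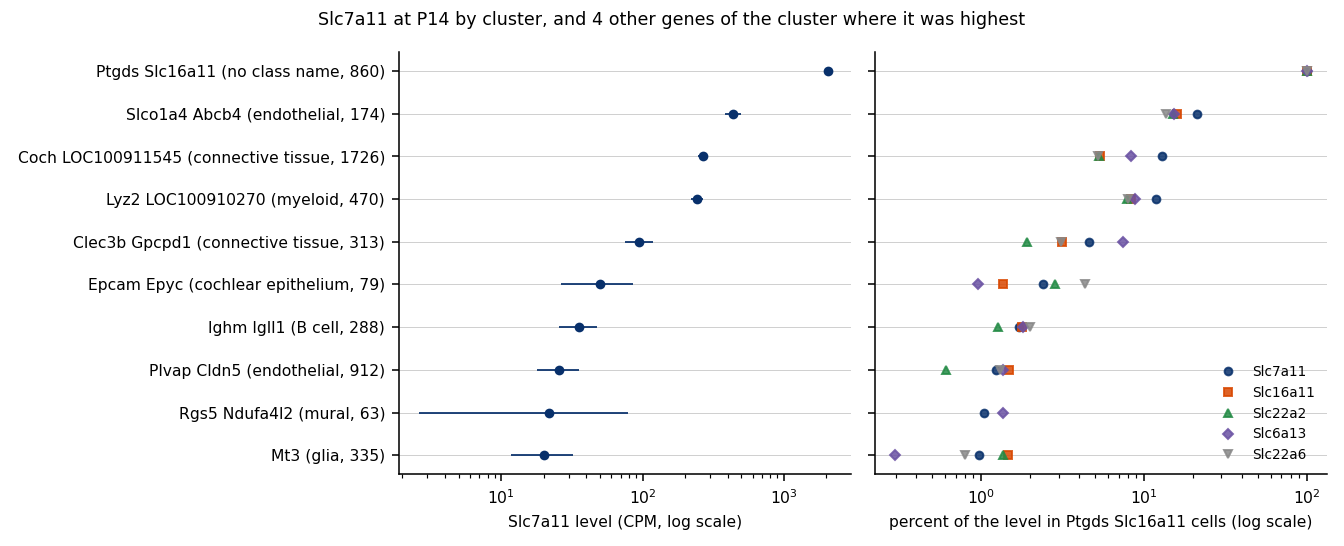
Left, Slc7a11 level at P14 (CPM, log scale) by cluster, named by leading genes, class and number of cells, with exact 95% Poisson intervals. Right, Slc7a11 and 4 carrier genes as percent of their own level in the Ptgds Slc16a11 cells (log scale, values of 0 in the Rgs5 mural cluster not drawn), where Slc7a11 lay at 12.9% in Coch cells above the 4 others and among them in Plvap endothelial and Ighm B cell-like cells.

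Cells that held Slc7a11 also often held those carriers. Of 95 Lyz2 myeloid-like cells with a Slc7a11 UMI, 62.1% had a UMI of at least 1 of the 4 carriers, against 12.3% of the 375 without. In Coch cells the shares were 27.2% of 389 and 11.4% of 1337. These shares were not matched for UMIs per cell, and the part of depth in them was not tested. At a finer clustering (resolution 1.2), 69 of the endothelial-like cells formed a cluster led by Ptgds and Slc7a11 (by its markers no longer endothelial-like) and held 213 of the 258 endothelial Slc7a11 UMIs at 1236 CPM, while the other 1017 were at 26.3 CPM (19.2 to 35.2). When every cell with a UMI of the 4 carriers was left out, a comparison added after seeing the data, Slc7a11 at P14 was at 91.2 CPM (84.8 to 97.9) over all cells, 162 (148 to 177) in connective tissue-like, 73.8 (58.4 to 92.0) in myeloid-like and 25.1 (18.0 to 34.0) in endothelial-like cells. Epithelium-like cells then had 2 of their 13 UMIs left, at 8.34 CPM (1.01 to 30.1). The P1 and P7 levels were then 5.18 and 5.47 CPM, and the log2 ratio of P14 to P7 was 4.06. The removal took 24.9% of the cells at P14, 2.32% at P1 and 2.58% at P7. It left 117 of the Ptgds Slc16a11 cells, at 564 CPM (469 to 673). These held 123 of the 764 Slc7a11 UMIs that remained at P14. Whether the Slc7a11 left in the other classes comes from free RNA, shared droplets or the cells themselves was not tested.

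Before P14 Slc7a11 was a low-count gene that differed among the connective tissue clusters. By class, it was highest at P1 in the unnamed cells led by Aldh1a2 (a retinoic acid-synthesising enzyme) and Calb2, at 11.8 CPM (9.71 to 14.2), and within the connective tissue-like cells in the Isyna1 Col9a3 cluster, at 13.4 CPM (11.8 to 15.1), against 0.760 (0.347 to 1.44) in the Sp5 Cav1 cluster. At P7 it was again highest in the Aldh1a2 Calb2 cells, at 15.7 CPM (13.1 to 18.8), and next in the Sfrp4 Gdf10 connective tissue-like cluster at 10.8 (9.32 to 12.4). Glia-like cells were near the floor, with 10 UMIs at P1 (0.916 CPM) and 5 at P7 (0.227 CPM). Epithelium-like cells had 6 UMIs at P1 (2.55 CPM) and 0 at P7, where 3 UMIs would have been 1.65 CPM, and endothelial-like cells had 1 and 0 UMIs. At these stages a thinned share was at most 1.75% in any class, so cells that carry the gene and cells that caught a stray molecule cannot be told apart one by one.

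Gclc, the catalytic subunit of glutamate-cysteine ligase, was at 8.29 CPM (7.73 to 8.88) at P1, 9.92 (9.29 to 10.6) at P7 and 16.8 (14.6 to 19.4) at P14. The levels were in order of age and the 3 intervals did not overlap. The P14 to P1 ratio was 2.03 (1.73 to 2.38), a log2 ratio of 1.02, but 0.83 relative to the median of all genes, which is within 2-fold. At P1 and P7 the Aldh1a2 Calb2 cells had the highest level, 17.3 CPM (14.7 to 20.2) and 24.3 (21.0 to 28.0). Myeloid-like cells were next to them at P7 with 24.1 CPM (16.6 to 33.9), and connective tissue-like cells were lowest at both stages with 6.42 and 6.98 CPM. Inside the connective tissue-like class the P14 level, 14.4 CPM (10.8 to 18.7), was 2.06 times that at P7 (1.52 to 2.74). Neighbours in the order of classes overlapped at every stage. At P14 no Gclc UMI was found in the 79 epithelium-like cells, where 3 UMIs would have been 11.5 CPM.

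Gclm, the modifier subunit, was at 32.7 CPM (31.6 to 33.9) at P1, 33.3 (32.1 to 34.5) at P7 and 24.7 (21.97 to 27.8) at P14. P1 and P7 overlapped, and P14 was 0.743 times P7 (0.657 to 0.838), within 2-fold. Among classes, mural-like cells were highest at every stage, at 63.7 CPM (52.8 to 76.2), 49.6 (40.1 to 60.7) and 97.5 (44.6 to 185, from 9 UMIs). At P1 and P7 the interval overlapped that of the endothelial-like cells (46.6 and 35.8 CPM), and at P14 it was separate from that of the next class, the Ptgds Slc16a11 cells at 32.7 CPM (24.5 to 42.8). Neuron-like cells at P1 were lowest with 15.1 CPM (12.3 to 18.3). Connective tissue-like clusters differed among themselves, from 18.6 CPM (16.7 to 20.6) in Isyna1 Col9a3 cells to 53.0 (48.7 to 57.6) in Plagl1 Col6a1 cells at P1. Thus the connective tissue cluster with the highest Slc7a11 at P1 had the lowest Gclm, beside the small Gcg Car3 cluster at 20.3 CPM (11.4 to 33.6), whose interval overlapped.

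Gss, the synthetase, was at 29.1 CPM (28.1 to 30.2) at P1, 27.2 (26.1 to 28.2) at P7 and 14.3 (12.2 to 16.6) at P14, the one member with a lower level past 2-fold in any stage comparison. The P14 to P1 ratio was 0.490 (0.416 to 0.573), and the P14 to P7 ratio of 0.525 (0.446 to 0.615) was within 2-fold on the CPM scale and past it relative to the median of all genes (log2 ratio -0.93 and -1.03). At P1 the gene was even across the classes, between 23.5 CPM in glia-like and 32.3 in epithelium-like cells, with overlapping neighbours. At P14 the classes diverged. Connective tissue-like cells had 14.4 CPM (10.8 to 18.7), against 28.0 at P7 and 30.4 at P1, and endothelial-like cells had 10.6 (6.49 to 16.4), against 19.8 and 27.4. Glia-like cells stayed at 30.3 CPM (19.9 to 44.0) beside 23.9 at P7 and 23.5 at P1. Inside classes Gss was past 2-fold lower at P14 than at P1 in 3 of 6 (connective tissue, endothelial and, from 1 UMI at P14, epithelium), where 8.6% to 20.8% of all genes were lower.

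Gsr, which recycles oxidised glutathione, was the least counted member, at 4.96 CPM (4.53 to 5.42) at P1, 3.20 (2.85 to 3.59) at P7 and 8.93 (7.30 to 10.8) at P14. The intervals did not overlap, with the lowest level at P7. It was below the 10 CPM set for a call, and its P14 to P7 ratio was 2.79 (2.21 to 3.50). At P1 myeloid-like (13.2 CPM, 8.04 to 20.3), endothelial-like (12.6, 7.99 to 18.9) and neuron-like cells (9.08, 6.96 to 11.6) lay above connective tissue-like cells (3.65, 3.19 to 4.17). At P14 myeloid-like cells had 19.0 CPM from 32 UMIs, which was 30.8% of the Gsr UMIs of the stage. The Ptgds Slc16a11 cells, highest for Slc7a11, had 3.08 CPM (1.00 to 7.20) from 5 UMIs, below the 9.88 CPM of the other P14 cells.

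**Figure D3:**
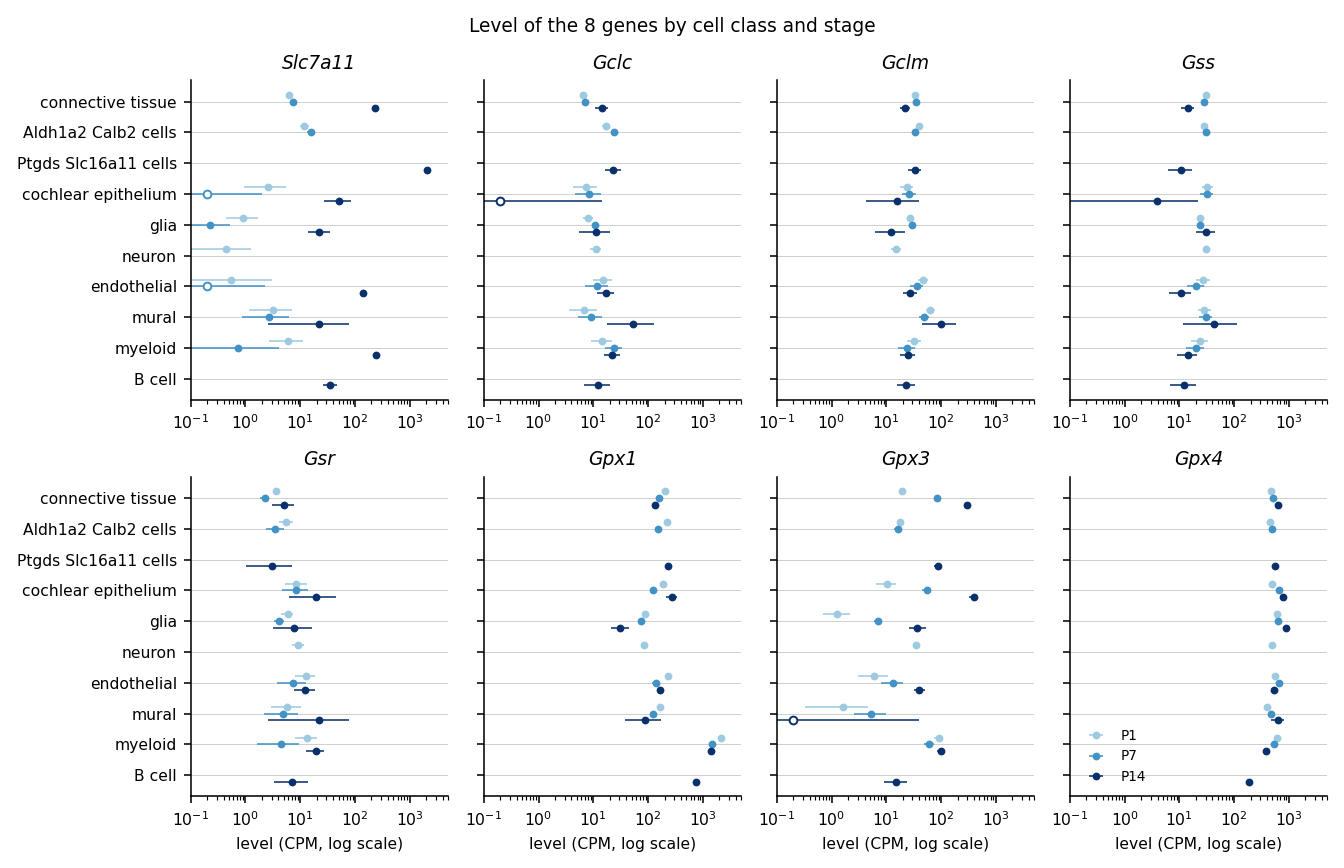
Level of each gene (CPM, log scale) by cell class with at least 50 cells in the library, at P1, P7 and P14, with exact 95% Poisson intervals; open points are counts of 0, drawn at 0.2 CPM. Slc7a11 spans 0 to 2065 CPM, Gpx1 is highest in myeloid cells at all stages, and Gpx4 lies between 187 and 896 CPM in every class.

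Gpx1, the cytosolic and mitochondrial peroxidase, was at 213 CPM (210 to 216) at P1, 152 (149 to 154) at P7 and 403 (391 to 414) at P14. Over all cells P7 was the lowest and P14 the highest stage, at 2.65 times P7 (2.56 to 2.74) and 1.89 times P1 (1.83 to 1.96). Its highest levels were in cells of blood origin. Myeloid-like cells had 2187 CPM (2113 to 2263) at P1, 1457 (1393 to 1522) at P7 and 1439.5 (1383 to 1498) at P14, which was 12.0, 11.0 and 6.33 times the level in the other cells of the library. The C1qb macrophage cluster was at 2617 CPM at P1 and 1983 at P7. B cell-like cells, seen at P14, were at 765 CPM (717 to 815). Myeloid-like cells, 8.98% of the P14 cells, held 51.7% of the Gpx1 UMIs of that stage, and B cell-like cells, 5.45% of the cells, held 20.3%. The macrophage, neutrophil, fibroblast and erythroid marker sums of these myeloid-like cells are given above. At resolution 1.2 only 196 of the 474 P14 cells remained in clusters named myeloid-like. A Lyz2 Tyrobp cluster of 192 of them had 1335 CPM of Gpx1 (1241 to 1433), and a cluster of 279 cells led by LOC100910270 and Lyz2, which its markers put with the connective tissue-like cells, had 1499 (1428 to 1572).

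Of the classes with a level at every stage, only the epithelium-like cells kept the order of the whole library. In connective tissue-like cells Gpx1 was at 204 CPM (201 to 208) at P1, 156 (153 to 159) at P7 and 132 (120 to 144) at P14, and in glia-like cells at 86.4 (81.0 to 92.1), 74.4 (70.9 to 78.1) and 31.4 (20.9 to 45.4). The values were lower at each later stage in both. Mural-like cells were at 163 CPM at P1, 122 at P7 and 86.7 (37.4 to 171) at P14. Endothelial-like cells were at 227, 138 and 167 CPM. The glia-like P14 to P7 ratio was 0.422 (0.279 to 0.612), whereas that of the epithelium-like cells was 2.18 (1.64 to 2.85), from 126 CPM to 273, the order of the whole library, in the class whose stria and fibrocyte markers were also far higher at P14. The other 4 classes were within 2-fold, from 0.711 to 1.21. The named classes with at least 50 cells in both libraries were also weighted equally, which left out B cell-like cells and the unnamed clusters. The log2 ratio of Gpx1 was then 0.04 in place of 1.41 for P14 to P7. For P14 to P1 it was -0.52 in place of 0.92, so the direction was reversed. The part of the weighting and the part of the cells left out were not told apart. Without myeloid-like and B cell-like cells, an alternative added after seeing the data, the P14 to P1 value was -0.27. Stage, library and cell makeup cannot be told apart here. At P7 against P1 Gpx1 was lower within each of the 8 classes and clusters compared, by less than 2-fold (log2 ratios of -0.72 to -0.21). Among those 8 is an unnamed cluster of whose cells 86.2% were marked as doublets.

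Gpx3, the secreted peroxidase, was at 18.2 CPM (17.4 to 19.1) at P1, 54.1 (52.6 to 55.6) at P7 and 146 (139 to 153) at P14. Each stage was higher than the one before, by 2.97 times (2.81 to 3.13) and 2.69 times (2.54 to 2.84), or 1.43 and 1.32 on the log2 scale relative to the median of all genes. Thinned shares of cells with a UMI were 1.55%, 4.63% and 10.7%, in the same order. With only the named classes of at least 50 cells in both libraries, weighted equally, the log2 ratio of P7 to P1 was 0.81 in place of 1.57, within 2-fold.

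Connective tissue-like cells held most Gpx3 UMIs, 64.1% at P1, 85.4% at P7 and 68.1% at P14. Their level was 19.0 CPM (17.9 to 20.1), then 84.8 (82.3 to 87.4) and 301 (284 to 319), and the last was 15.9 times the first (14.6 to 17.2). Different clusters carried it. At P1 the Plagl1 Col6a1 cluster was highest among them at 47.6 CPM (43.5 to 52.0), at P7 the Aard Ramp3 cluster at 240.1 (231 to 249), and at P14 the Coch cluster (Coch encodes cochlin, a matrix protein of cochlear fibrocytes) at 362 (340 to 384). The Clec3b cluster of the same stage was at 103 (82.7 to 126). The Coch cluster had 3 cells at P1 and 8 at P7, the Clec3b cluster 1 and 0, and each connective tissue cluster of P1 and P7 had at most 5 cells at P14, so age and cluster cannot be told apart within this class. At P7 the Isyna1 Col9a3 and Gcg Car3 clusters of the same class were at 12.1 and 19.2 CPM, more than 10-fold below the Aard Ramp3 cells.

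**Figure D4:**
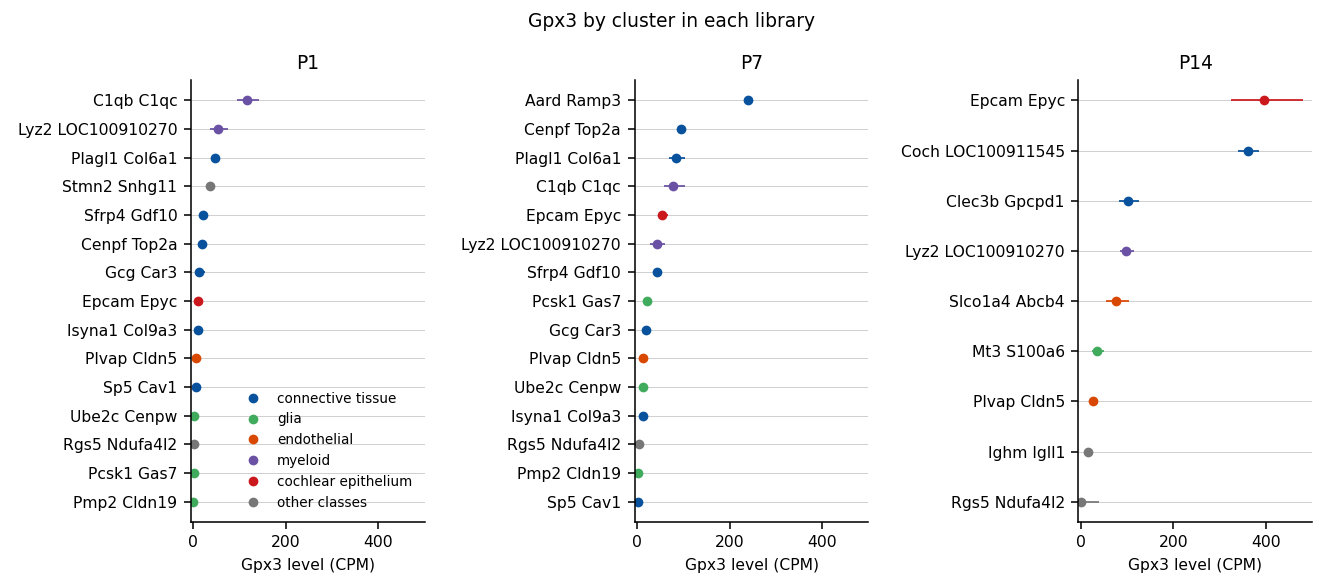
Gpx3 level (CPM, linear axis) by named cluster in each library, ordered from high to low and coloured by class, with exact 95% Poisson intervals. The highest were the C1qb macrophage cluster at P1 (117 CPM), the Aard Ramp3 connective tissue cluster at P7 (240.1 CPM) and the epithelial (396 CPM) and Coch (362 CPM) clusters at P14.

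Cochlear epithelium-like cells, a single cluster whose markers nevertheless differed between the stages, had 10.2 CPM of Gpx3 (6.54 to 15.2) at P1, 54.5 (44.3 to 66.4) at P7 and 396 (323 to 481) at P14. The level was thus higher at each stage, by 5.34 times (3.39 to 8.72) and 7.27 times (5.46 to 9.68), and at P14 these cells ranked first among the classes, from 103 UMIs in 79 cells, with an interval that overlapped that of the Coch cluster. In the same cells the summed markers of stria marginal cells went from 541 CPM at P7 to 9083 at P14 and those of fibrocytes from 1895 to 52904, and their part in the Gpx3 difference was not tested. Glia-like cells were at 1.28 CPM (0.701 to 2.15), 7.13 (6.06 to 8.34) and 37.0 (25.5 to 51.9), and endothelial-like cells at 6.03, 12.97 and 39.9. At P7 against P1 Gpx3 was 2-fold or more higher within 6 of 8 groups, where 9.04% to 17.8% of all genes were. Among those 6 was the cluster mostly marked as doublets (15.1 CPM at P1 and 42.3 at P7). At P14 against P7 Gpx3 was 2-fold or more higher within 4 of 6, where 13.2% to 26.7% of all genes were. The exceptions at P7 were myeloid-like cells (0.673 times, from 90.1 to 60.7 CPM) and Aldh1a2 Calb2 cells (0.922 times, from 18.0 to 16.6). Mural-like cells had 3 UMIs at P1, 10 at P7 and 0 at P14, where 3 UMIs would have been 32.5 CPM. The part of free RNA in the low levels of glia-like and endothelial-like cells at P14 was not tested.

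Gpx4, the phospholipid hydroperoxidase that guards against ferroptosis (an iron-dependent cell death by lipid peroxidation), was at 486 CPM (482 to 491) at P1, 545 (541 to 550) at P7 and 549 (535 to 562) at P14. P7 and P14 overlapped, with a ratio of 1.01 (0.980 to 1.03). It was within 2-fold in each of the 8 groups at P7 against P1, the cluster mostly marked as doublets among them, and each of the 6 classes at P14 against P7. The class order changed, since myeloid-like cells were first at P1 with 607 CPM (568 to 647), within the interval of the glia-like cells, and next to lowest at P14 with 388 (359 to 419). Glia-like cells had 594 CPM (579 to 608), 631 (620 to 641) and 896 (834 to 960), and ranked first at P14 beside the epithelium-like cells at 789 (684 to 904). B cell-like cells were lowest with 187 CPM (164 to 212).

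Read against the other cells of the same library, glia-like cells had the most calls summed over the stages, and all but 1 of these were lower. There 3 of 7 members were lower at P1 (15.4% of all genes) and at P7 (16.3%), namely Slc7a11, Gpx1 and Gpx3, and 4 at P14 (24%), when Gclm joined them. Higher were 0 at P1 (7.19% of all genes), 0 at P7 (7.85%) and 1 at P14 (8.16%), Gss. In connective tissue-like cells 0 were past 2-fold at P1 (4.05% of all genes higher, 9.87% lower). At P7 Gpx3 was the 1 higher (6.75%) and 0 were lower (8.94%), and at P14 Gpx3 was again the 1 higher (8.84%) while Slc7a11 and Gpx1 were lower (12%). At P14 those other cells include the Ptgds Slc16a11 cells, with most Slc7a11 UMIs, and the myeloid-like and B cell-like cells, with most Gpx1 UMIs. Lower calls of these genes at P14, in this and other classes, are relative to them. Connective tissue-like cells ranked 3 of 8 groups for Slc7a11 at P14, at 229 CPM. In endothelial-like cells 0 were higher at any stage (8.71%, 8.32% and 12% of all genes), and Slc7a11 and Gpx3 were lower at P1 (18.7%) and P7 (17.5%), joined by Gpx1 at P14 (14.3%).

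Myeloid-like cells, in contrast, had members that were higher, Gpx1 and Gpx3 at P1 (8.44% of all genes), Gclc and Gpx1 at P7 (6.67%) and Gpx1 at P14 (4.55%). Lower were 0 at P1 (29.4%), Slc7a11 at P7 (22%) and 0 at P14 (21.4%). The Aldh1a2 Calb2 cells had Slc7a11 and Gclc higher at P1, 2 of 7 where 2.01% of all genes were, and again at P7, 2 of 7 where 3.48% were, with 0 lower at P1 (10.4%) and Gpx3 lower at P7 (10.8%). The Ptgds Slc16a11 cells had Slc7a11 higher (3.84%) and 0 lower (15.5%). In epithelium-like cells 0 were higher at P1 (5.11%) and P7 (6.2%) and Slc7a11 was lower at both (14.4% and 13.7%), whereas at P14 Gpx3 was higher (7.11%) and Slc7a11 and Gss were lower (27.8%).

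In mural-like cells 0 were higher at P1 (6.8%) and P7 (5.75%), Gpx3 was lower at P1 (12.2%) and Slc7a11 and Gpx3 at P7 (12.1%). At P14, with 63 cells, Gclc, Gclm and Gss were higher (12.9%) and Slc7a11, Gpx1 and Gpx3 lower (11.1%). B cell-like cells had Gpx1 higher (12.8%) and Slc7a11, Gpx3 and Gpx4 lower (39.4%). Neuron-like cells at P1 had Gpx3 higher (11.7%) and Slc7a11, Gclm and Gpx1 lower (22%). The remaining unnamed cluster, of whose cells 86.2% were marked as doublets, had 0 of 7 members past 2-fold at P1 and P7 (1.71% and 0.159% of all genes higher, 4.81% and 3.2% lower).

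Within a class, Slc7a11 was 2-fold or more higher at P14 than at P7 in 6 of 6 classes and at P14 than at P1 in 6 of 6, where 13.2% to 26.7% and 20.8% to 32.1% of all genes were. The connective tissue-like ratio to P7 was 31.3 (27.7 to 35.5). The class consisted of other clusters by then, with the Coch cluster (1726 cells) and the Clec3b cluster (313) in place of those of P1 and P7. Among myeloid-like cells the P14 cells were nearly all of the Lyz2 cluster, and among glia-like cells of the cluster led by Mt3. Endothelial-like and epithelium-like cells had 0 UMIs at P7, so the ratios were set against 3 UMIs in the P7 class, which gave 74.0 and 30.3, with lower counting limits of 59.7 and 21.3. Both rest on few cells. Without the 69 cells set apart at the finer clustering the endothelial-like level was the 26.3 CPM given above, beside 1.85 CPM for 3 UMIs at P7, and without the carrier-holding cells the epithelium-like level was 8.34 CPM, from 2 UMIs, beside 1.65 CPM. The mural-like ratio of 8.22 (0.782 to 50.2) rests on 5 and 2 UMIs, and its interval includes 1.

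Genes with a profile most like each member were sought over the 25 stage-by-class groups, by Pearson's r of log2(CPM + 10) among 7749 other genes at 10 CPM or more. The groups share libraries and free RNA, so r is given as a description with no p. Slc7a11 was followed most closely by Slc6a13 (0.97), Slc16a11 (0.94) and Cemip (0.92), all leading genes of the Ptgds Slc16a11 cells. Gpx1 was followed by Rac2 (0.89), Cd74 (0.87) and Otulin (0.87), of which Rac2 and Cd74 are known from blood cells. Gpx3 was nearest to AABR07070307 (0.85), Atp6ap2 (0.80) and LOC684270 (0.79), Gpx4 to Saraf (0.88), Cd59 (0.82) and LOC691807 (0.78), and Gclm to the actin-linked genes Flna (0.83), Phldb2 (0.82) and Nexn (0.82). For Gclc they were Sik2 (0.84), Wdr83 (0.79) and Cutc (0.75), for Gss Mtg2 (0.85), Eif2b3 (0.81) and Psmd7 (0.79), and for Gsr, which has the fewest UMIs, Diaph1 (0.89), Uggt1 (0.80) and Usp4 (0.73). Among the members themselves r ran from -0.64 (Slc7a11 and Gss) to 0.44 (Gclm and Gss).

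Genes around the members were described by 15 lists, again by the count past 2-fold, beside the shares of all genes given above (9.55% higher and 5.1% lower at P7 against P1, 17.7% and 8.84% at P14 against P7, 22.9% and 9.37% at P14 against P1). Of the transport partners 4 of 4 tested genes were higher at P14 against P1, where 22.9% of all genes were. Slc3a2, the heavy chain that Slc7a11 and other carriers pair with, was at 365, 672 and 760 CPM, and so had its larger step before P14, unlike Slc7a11. Slc7a5, a large neutral amino acid carrier that shares that heavy chain, was at 14.0, 23.5 and 117 CPM, the glutamine carrier Slc1a5 at 10.0, 8.10 and 61.2, and the lysosomal cystine exporter Ctns at 6.95, 13.5 and 25.1. Of the transsulfuration and methionine genes 2 of 3 were higher at P14 against P1 (Mat2a and Mat2b), and of the glutathione breakdown genes 2 of 6 (Oplah, 5.47 to 21.2 CPM, and Chac2, 5.89 to 16.3). Of the other glutathione peroxidases Gpx8, an endoplasmic reticulum enzyme, was lower at P14 (168 CPM) than at P7 (342), and Gpx7 was within 2-fold.

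Of 16 glutathione transferases, 3 were higher at P7 against P1, and 7 were higher and 1 lower (Gstk1) at P14 against P7. Gsta1 was at 26.7, 57.6 and 566 CPM, Mgst2 at 8.56, 8.39 and 94.3, Gstt2 at 13.9, 37.2 and 109 and Gstm2 at 21.2, 24.1 and 99.8. Gsta1 is also among the leading genes of the Coch cells, and near-identical members of this family may share reads. Of 7 NADPH genes 3 were lower at P14 against P7 (Taldo1, Tkt and Idh2), where 8.84% of all genes were, 0 were higher and the other 4 were within 2-fold. At P14 against P1, 1 of the 7 was lower and 0 were higher. Of 11 thioredoxin and peroxiredoxin genes, 2 were lower at P14 than at P7 (Prdx2 and Prdx4) and 0 were higher. Against P1, 2 were higher (Txn1 and Prdx1) and 2 were lower, with a median log2 ratio of -0.13 beside 0.19 over all genes. Glrx was higher and Glrx3 lower at P14 against P7, among 4 glutaredoxins, and against P1 1 of these was lower and 0 were higher. Of 9 selenoprotein genes, which include those that build selenocysteine for Gpx1 and Gpx4, 3 were higher at P14 against P7 (Selenop, Sepsecs and Secisbp2l).

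Of 9 Nrf2 genes tested, the transcription factor Nfe2l2 itself was the 1 past 2-fold, at 16.6 CPM at P1, 43.9 at P7 and 50.9 at P14, and 0 were lower. Of 8 Atf4 pathway genes 3 were higher at P14 against P1 (Cebpb, Ddit4 and Ddit3) and Phgdh, the entry enzyme of serine synthesis, was lower at 49.995 CPM against 189. Of 8 ferroptosis lipid genes 7 were higher and 1 lower (Aifm2) at P14 against P1, led by the lipoxygenase Alox15 (0.357, 9.19 and 29.3 CPM), the transferrin receptor Tfrc (10.5, 5.10 and 68.2) and Por (18.4, 48.4 and 76.8). Sod3 was the 1 of 5 superoxide dismutase and catalase genes past 2-fold, at P14 against P1. Dissociation and stress genes moved with stage as well, with a summed level of 3361, 1395 and 1742 CPM. Of 11, 2 were higher and 5 lower at P7 against P1, and 5 were higher and 0 lower at P14 against P7. At P14 against P1, 3 were higher and 4 lower. Of 10 genes of dividing cells 4 were higher at P7 against P1, and 2 were higher and 1 lower at P14 against P7. Against P1, 4 of them were higher at P14 and 0 lower. The part of either in the member values was not tested.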

How the data were processed

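Cochlear basal membrane cells of 3 libraries, 1 each of P1, P7 and P14, were measured. The authors made the deposited matrices of UMI counts per gene and barcode, not normalised, with bcl2fastq and Cell Ranger (software version 3.1.0 in the matrix header) on rn6, and used Seurat 3.1.1, per the submitters' processing notes and the methods. The annotation and the rule that called cells are not given in the sources used here. The matrices hold 34927 barcodes, the number of cells the study states after filtering, whereas its stated limits (more than 500 and fewer than 5000 genes, under 25% mitochondrial UMIs, here the sum of 13 Mt- genes) left 30641, which were used.

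Counts were summed per library, class or cluster and given as CPM with exact Poisson intervals (95%), and ratios with Clopper-Pearson intervals, in Python 3.11.15 (numpy 2.4.6, scipy 1.17.1, pandas 2.3.3). With 1 library per stage no test was made, and a call is a ratio of 2 or more among 8199 genes with a mean of 10 CPM or more. A class needed 50 cells for a level. A ratio to a count of 0 is a lower bound set against 3 counts in the class. Shares of cells were taken after thinning to 1000 UMIs, which left out 37, 193 and 735 cells below that. The interval code was checked on simulated data. P1, P7 and P14 had 98005495, 93080129 and 11641065 UMIs in kept cells.

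Cells were clustered in Seurat 5.3.0 (R 4.3.3; log normalisation, 2000 variable genes without 156 member, pathway and stress genes, 10 components, 20 neighbours, resolution 0.8, no integration). Clusters were named from 18 marker lists (137 of 143 genes found) when at least 3 markers were found. A cluster whose top 10 genes held more markers of another class, or of which over 50% of cells were marked by Scrublet (scanpy 1.11.5), stayed unnamed. Scrublet marked 622 cells at P1, 775 at P7 and 2 at P14 (0.0379%), where it did not work, and marked cells were kept. Named genes were the members, the 3 genes with the most similar profile to each and up to 4 genes per list past 2-fold. The members and lists were chosen with earlier results of these data known, and the naming rule, the 4 carriers set beside Slc7a11 and the alternatives called added were chosen after seeing the values. Alternatives changed the filters, scaling, thinning, class makeup, clustering and fold. Equal weighting of classes used only the named classes with at least 50 cells in both libraries, so cells of unnamed clusters and of smaller classes were left out. Promoter sequences came from RefSeq (GRCr8), not the build of the counts. List genes without a match in the matrices were not analysed here.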

Additional observations from a re-analysis of the deposited data

Results flagged for a closer look

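Gpx1 at P14 against P7 went in opposite directions inside 2 classes. The log2 ratio was 1.12 in cochlear epithelium-like cells (126 to 273 CPM) and -1.25 in glia-like cells (74.4 to 31.4 CPM). In the epithelium-like cells the summed markers of stria marginal cells were at 541 CPM at P7 and 9083 at P14, and their part in this was not tested. With 1 library per stage the difference between them was not tested.

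Members also had signal in barcodes left out by the limits. At P7, in 1389 barcodes with 500 genes or fewer, Gclm was at 109 CPM against 33.3 in kept cells and Gpx1 at 365 CPM against 152, and haemoglobin genes there summed to 152664 CPM against 1573 in kept cells. At P1, in 384 barcodes with 5000 genes or more, Gsr was at 9.93 CPM against 4.96. At P14, in 143 barcodes with 25% or more mitochondrial UMIs, Gss was at 29.6 CPM (12.8 to 58.3, from 8 UMIs) against 14.3.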

How the results depend on the processing

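Each count was recomputed under other settings, and 198 of 228 values stayed within 1.5 times the reported count. No member ratio changed from a 2-fold call to the opposite direction. The log2 ratio of Slc7a11 at P14 against P7 lay between 4.06 and 6.65, and that of Gpx3 at P14 against P1 between 2.77 and 3.42. Gss at P14 against P1 (-1.25 to -0.51) and Gclc (0.80 to 1.26) crossed 2-fold in 4 and 5 of 14 alternatives, and Gpx1 at P14 against P7 (from 0.04 up, 1.41 as reported) in 3. Of the 14, the settings at 1.5-fold, at 3-fold and with no filter on low values leave every ratio unchanged and could not cross. Gpx1 at P14 against P1, 0.92 as reported, was -0.52 with classes weighted equally and -0.27 without myeloid-like and B cell-like cells (added).

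Members lower at P14 against P7, 0 as reported, were 1 with a mitochondrial limit of 10%, with scaling without mitochondrial, ribosomal protein and haemoglobin genes, after thinning to 1000 UMIs, relative to the median of all genes and at 1.5-fold. Members lower at P14 against P1, 1 as reported, were 0 with the mean CPM of each cell, with all barcodes, with classes weighted equally, at 3-fold and, added after seeing the data, without the Ptgds Slc16a11 cells. Members higher at P7 against P1, 1 as reported, were 0 with classes weighted equally and at 3-fold, and members higher at P14 against P7, 3 as reported, were 1 at 3-fold.

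Pairs of member and class were counted over the named classes only, without the unnamed clusters. Pairs higher than the other cells numbered 3 (P1), 3 (P7) and 8 (P14) with the main settings. At 1.5-fold there were 6 at P1 and 5 at P7, with no filter on low values 5 at each of these stages, after thinning and at 3-fold 5 at P14, and 5 at P1 and 2 at P14 with classes from the summed markers of each cell. Lower pairs at P1, 10 as reported, were 6 at 3-fold. Inside the named classes, pairs higher at P7 against P1, 5 with the main settings, were 3 both after thinning and without cells marked by Scrublet. Pairs lower, 2 with the main settings, were 1 after thinning. Pairs lower at P14 against P7, 3 as reported, were 5 with scaling without mitochondrial, ribosomal protein and haemoglobin genes, 5 relative to the median and 6 without cells holding the 4 carriers (added). Pairs lower at P14 against P1, 5 as reported, were 8 relative to the median. Genes of the lists lower at P7 against P1, 6 as reported, were 11 with no filter. The cause of each was not tested.

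No paired analysis was possible because each stage has 1 library, and with 1 library per stage none was left out. The P14 library, with a median of 1614 UMIs per cell, limits the values of mural-like and epithelium-like cells (63 and 79 cells) and of Gsr (104 UMIs) most.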
